A study of Homo sapiens with 2 samples.

Results

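The genes described here are 44 human regulators of chromatin: acetyltransferases and acetyl readers, histone methyltransferases, subunits of Polycomb repressive complex PRC2 with ASXL1, histone demethylases, SWI/SNF and CHD remodelers, histone deacetylases with the corepressor NCOR1, and enzymes of DNA methylation. They were taken as a named list, and no measured value entered the rule that assigns interactions to them. The list itself was chosen with earlier results of these data known, so its counts are descriptive. An interaction was counted for a gene where one of its 5-kb bins overlapped the gene body or the 10 kb on either side of it, which is called the window of the gene below. Of the 49245 interactions in the list, 446 (0.906%) touched a window of the 44 genes, and 1 of these touched the windows of 2 members, giving 447 pairs of a gene and an interaction.

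The data are HiChIP of the fusion transcription factor TCF3::HLF, a method that joins chromatin immunoprecipitation with proximity ligation and so counts DNA contacts held near a bound protein. The cells were HAL-01, a leukemia line with the t(17;19) translocation that makes the fusion. They expressed Cas9GFP and carried a stable knockout of wild-type TCF3 (wt-TCF3 KO), made with an sgRNA, and the antibody was against E2A, which is another name of TCF3. There were 2 replicates of this 1 condition, pooled for sequencing and merged by the authors into 1 list before interactions were called.

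Every library was of the same genotype, with no untreated, parental or isotype-control arm in the list. No value below has a replicate error, and no difference was tested between samples. The libraries came from bulk cultures, so a contact present in few cells and a weaker contact present in many cannot be told apart. The list holds no expression values, and the lineage markers of the line could not be checked with it.

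Chromatin regulators write, read and erase chemical marks on histones and DNA, or move nucleosomes. Acetylation of histone tails by the CREBBP and EP300 acetyltransferases accompanies active enhancers and promoters, and deacetylases remove it. Many of these genes are recurrently mutated or rearranged in leukemia, and several encode partners that transcription factors use to change the chromatin at their sites. The HLF portion of the fusion protein binds DNA through its basic leucine zipper, which recognises a palindromic site.

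The sequences that follow are HLF motifs in bins of the 44 windows that held 8 or more interactions. They are shown because they lie in the most-used bins described below. The 7 bins they come from took part in 80 of the 446 interactions (17.9%). The motif letters searched, on both strands and without mismatch, were TTACGTAA and TTATGTAA, and 30.6% of all 5-kb bins of chromosomes 1 to 22 and X held one. The letters are the hg38 reference, written 5′ to 3′, with the motif in capitals and up to 11 bases on each side. A match describes the reference and was not measured as bound. Bins of CHD7 and KAT6A with a motif are described by their values only.
HDAC4, intron 3, chr2:239223108-239223137, plus strand, with the first motif forward and the second reversed: cagTTACGTAAgatcaagtTTACATAAgaa
HDAC4, intron 2, chr2:239309004-239309033, minus strand: tttctgtgctgTTATGTAActgctcagtgt
HDAC4, intron 2, chr2:239309252-239309281, minus strand: tcatctgcttgTTATGTAAtgtgacaacat
ARID2, upstream of the gene, chr12:45727623-45727652, plus strand: ggcactgacggTTACGTAAggggctgtgcg
ARID2, upstream of the gene, chr12:45727971-45728000, minus strand: gaggtgaaaaaTTATGTAAtatagtgcagc
DOT1L window, beyond the end of the gene, chr19:2236466-2236495, minus strand: cagtttaatggTTATGTAAcaacggtccgt
KDM1A, intron 2, chr1:23040420-23040449, plus strand: ctgaaaggctgTTATGTAAgataaatcaaa
KAT6B, intron 2, chr10:74842459-74842488, plus strand: ctgtggctgtgTTATGTAAtacctgcctgt
KDM4C, intron 8, chr9:6895767-6895796, plus strand: aatattttgagTTATGTAAccaattttagt
The 2 HDAC4 motifs in intron 3 lay 8 bases apart. The first ARID2 motif lay at -2.07 kb from the annotated start of the gene, in an exon of the noncoding gene LINC00938, and the second lay at -1.72 kb. The motif in the DOT1L window fell in a noncoding stretch of an exon of the neighbouring gene PLEKHJ1. All other motifs shown were intronic in the canonical transcript of the gene named.

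Interactions were unevenly spread over the 44 genes. An interaction was listed at 41 of them, whereas 64.5% of the 19970 protein-coding genes had one. Weighted to the window lengths of the members, the share over protein-coding genes was 81.7%, or 35.9 of 44 genes. Of the members, 17 had 10 or more interactions, against a background of 10.1% of protein-coding genes and 21.6%, or 9.49 of 44, when weighted to the members' lengths. A further 6 members had 5 to 9, and 18 had 1 to 4. The 10 genes with the most were HDAC4, ARID1B, ARID2, KDM4C, HDAC9, CHD7, CREBBP, KAT6A, KMT2C and KMT2E. Together they held 273 of the 447 gene-interaction pairs (61.1%), on 46.5% of the summed window length. Among the 17 members with 10 or more, the most-used bin took a median of 38.5% (29.2 to 58.8) of the interactions, and 46.7% over the 2020 protein-coding genes with 10 or more. The interval of the members included that value. The 3 genes with none were the methyltransferase NSD2, the deacetylase HDAC2 and SMARCB1, a core SWI/SNF subunit. The anchor nearest to the NSD2 window lay 6.39 kb outside it, in LETM1. That nearest to the HDAC2 window lay 13.0 kb away, whereas that nearest to the SMARCB1 window lay 237 kb away.

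**Figure D1:**
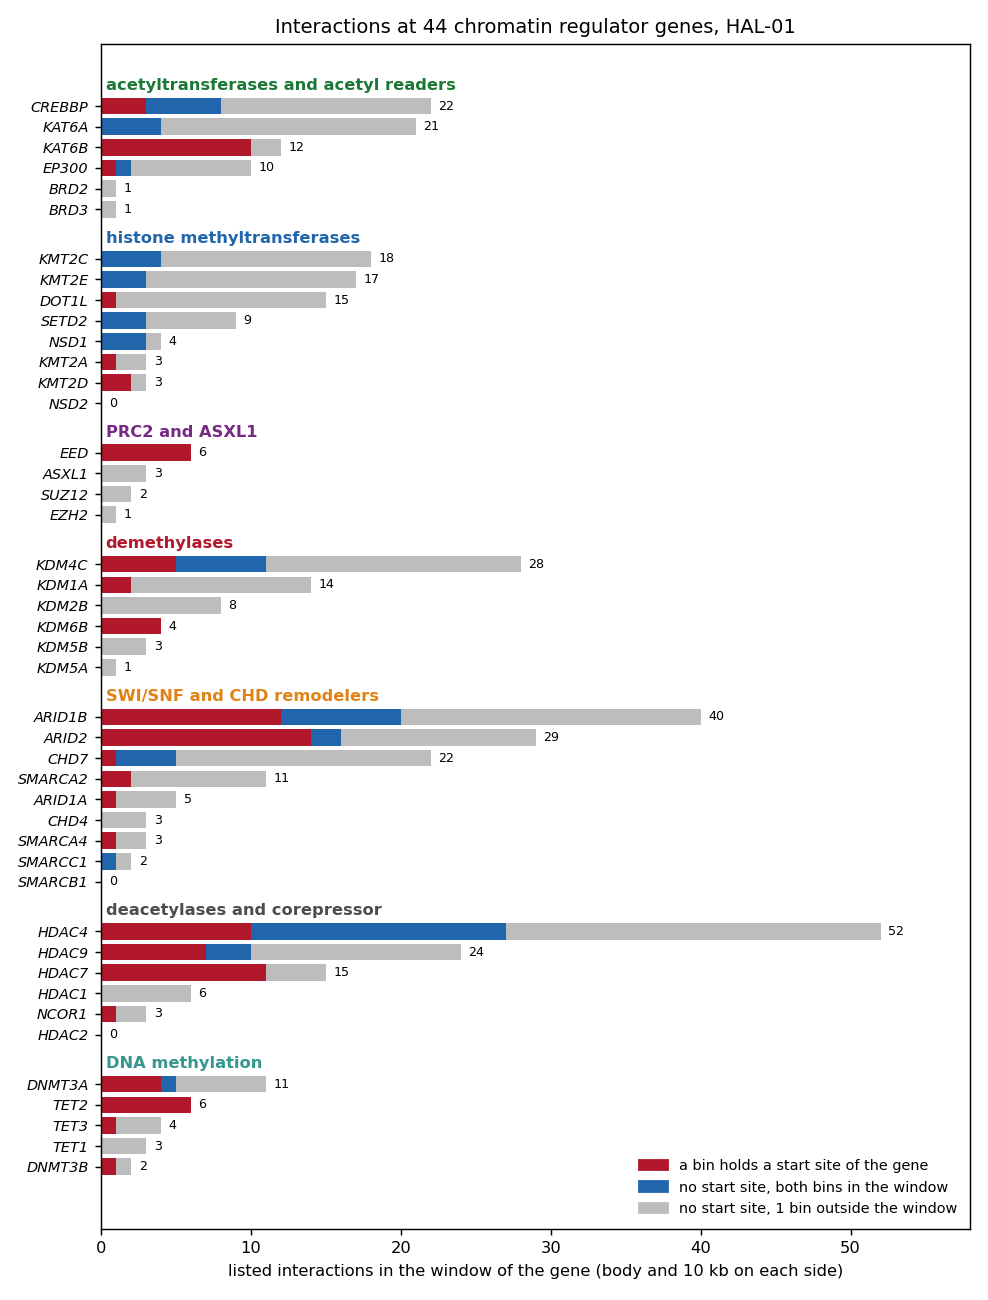
Number of listed interactions in the window of each of the 44 genes, grouped by role. Red marks interactions in which a bin holds a transcript start of the gene, blue those without one and with both bins in the window, and grey those with a bin outside it; HDAC4 has 52 and NSD2, HDAC2 and SMARCB1 have 0.

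Window length moved with these counts, and the members are long genes. Their median window was 133 kb (95% interval 101 to 168), against 47.5 kb over protein-coding genes. The median was 5.5 interactions per gene (3 to 11) for the members and 1 for protein-coding genes, and per 100 kb of window it was 4.65 (2.88 to 5.90) against 2.23. The members' median density was 3.00 with contact counts of at least 20 only, and 2.92 with q-values under 1e-05 only. These filters were not applied to all protein-coding genes, so the filtered values cannot be set against 2.23. Within classes of like window length, 31 of the 44 members lay above the class median, 4 at it and 9 below it, whereas 46.8% of all protein-coding genes lay above theirs. In the class of 120 to 200 kb, the 14 members had a median of 7 interactions against 4 over its 1935 genes. In the class of 200 to 400 kb, the 7 members had a median of 12 against 7. Long genes that hold no interaction also occurred among the members: NSD2, with a window of 131 kb, had 0 where its class median was 4.

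**Figure D2:**
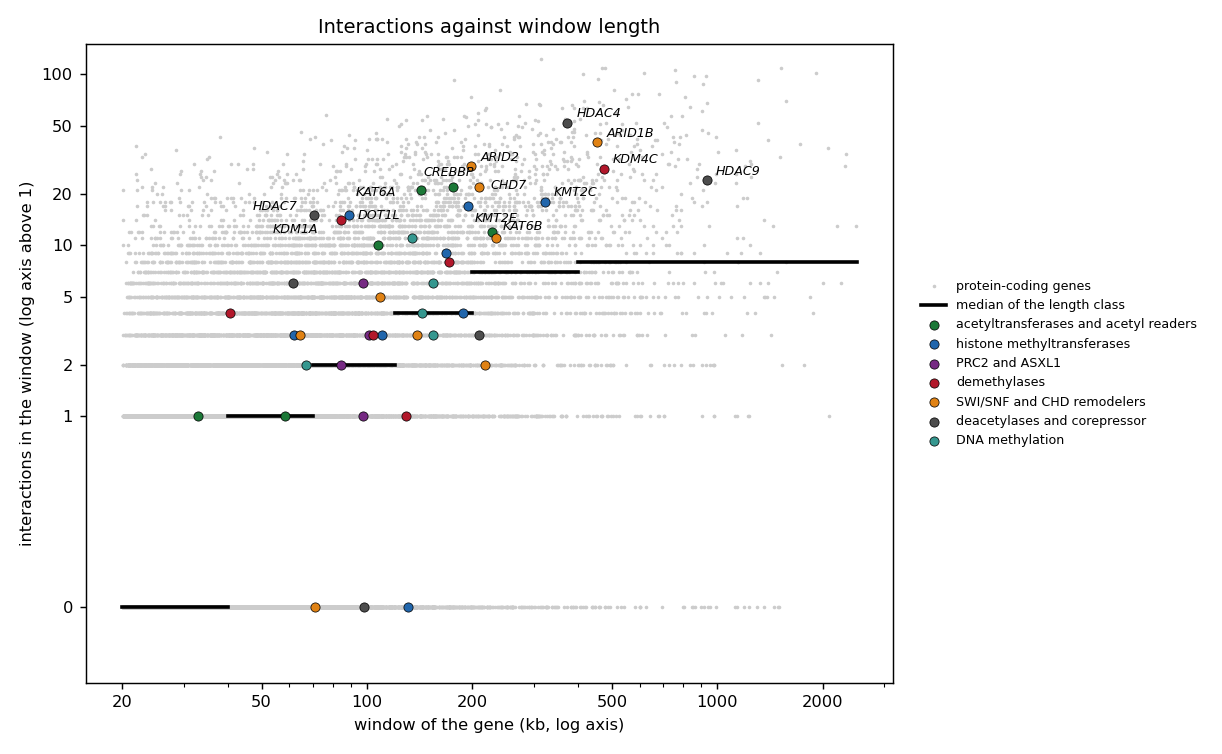
Interactions in the window of each protein-coding gene (grey points) against the length of its window in kb, both on log axes (linear below 1 interaction), with the 44 members coloured by role and black bars at the median of each length class. HDAC4, ARID1B and KDM4C lie well above the bar of their class, and 3 members lie at 0.

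The surroundings of a gene were measured in the same unit. Over 1 Mb on each side of the window, the members had a median of 4.53 interaction ends per 100 kb, compared with 4.65 inside their windows. For all protein-coding genes the medians were 3.45 outside and 2.28 inside. At 23 of the 44 members the window was denser than its surroundings, a share of 52.3% (Wilson 95% interval 37.9 to 66.2), and the share over protein-coding genes was 35.8%. HDAC4 stood apart here, with 20.1 ends per 100 kb inside its window and 2.60 around it. DNMT3A had the densest surroundings of the members, 9.75 ends per 100 kb.

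A wider list of 145 other chromatin regulators was counted in the same way. Of these, 116 (80.0%, 72.8 to 85.7) had an interaction, against 64.5% of protein-coding genes. A further count, of those with 10 or more, gave 23 (15.9%) against 10.1%. The median was 2 per gene, against 1. Their median window was 75.5 kb, longer than the 47.5 kb of protein-coding genes, and these shares were not weighted to length. Above their length-class median lay 81 (55.9%), against 46.8% of protein-coding genes. The highest counts were 49 at AFF1, a subunit of the super elongation complex, 48 at JARID2, an accessory factor of PRC2, and 39 at the coactivator NCOA2.

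Among the acetyltransferases and acetyl readers, all 6 genes had an interaction and 4 had 10 or more. This role had the highest pooled density, with 9.0 interactions per 100 kb. CREBBP, at chr16:3725054-3880713, held 22 and its paralog EP300, at chr22:41092592-41180077, held 10, with contact counts of 14 to 67 and 13 to 32. A contact count is the number of read pairs that join a pair of bins. Their windows differed in length (176 and 107 kb), and per 100 kb the counts were 12.5 and 9.30. The largest contact count of all 446 interactions was at CREBBP: 67 read pairs (exact Poisson 95% interval 51.9 to 85.1, counting error only) joined chr16:3715001-3720000, which holds the start of TRAP1, a mitochondrial chaperone gene, to chr16:3855001-3860000 inside CREBBP. The q-value was 5.83e-39, and the count was 2.79 times the median of the 558 listed interactions at the same distance of 140 kb, of which it ranked 4th.

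The CREBBP end of that contact was one of a pair of adjacent bins that took most of the gene's interactions. The bin at 3855001 held 8 and the one at 3850001 held 7, at 23.2 and 28.2 kb into the gene. The bin at 3850001 had a motif and the other had none. Next in strength at CREBBP were contacts of 54, 47 and 46 read pairs, each joining one of these bins to a site elsewhere in the gene body. The interaction of 46 belonged to a merged group whose summed contact count was 163, the highest sum among the members. EP300 differed in layout: its top 3 contacts, of 32, 29 and 28 read pairs, all led from bins in the gene to 1 bin outside it, chr22:41015001-41020000.

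KAT6A and KAT6B, paralogous MYST acetyltransferases, had 21 and 12 interactions. At KAT6A none lay at a start site, and the bins used most were at the far end of the gene. The bin at chr8:41925001-41930000, which overlaps that end and holds a motif, took 9 interactions, and one at chr8:41945001-41950000 took 7. KAT6B was the reverse, with 10 of 12 interactions at a start site. Of these, 9 went through the bin at chr10:74840001-74845000, which holds an internal transcript start and the intronic motif printed above. The strongest of them joined it to SAMD8 with 40 read pairs (28.6 to 54.5) over 280 kb, and every one of the 12 KAT6B interactions had a motif in a bin.

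BRD2 and BRD3, which read acetylated histones, had 1 interaction each. The BRD2 interaction had 45 read pairs, but its bin in the window lay in the neighbouring gene HLA-DMA and not in BRD2. The BRD3 interaction, of 21 read pairs, led to a bin inside RXRA that had 40 interactions in all.

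The histone methyltransferases held 69 interactions at 7 of 8 genes. KMT2C had 18 and KMT2E 17, whereas KMT2A and KMT2D had 3 each. KMT2C and KMT2D are paralogs that methylate lysine 4 of histone H3 at enhancers. They also differ in length, with windows of 322 and 61.8 kb, and per 100 kb they had 5.59 and 4.85, so their densities were close. At KMT2C the contacts were weak, with a median of 17 read pairs against 24 over the list. KMT2E, a SET-domain protein of the same family, used mainly the bin at chr7:104935001-104940000, centred at -3.44 kb from the gene start, in 10 of its 17 interactions. It was the only one of the 7 member bins with 10 or more interactions that held no HLF motif. The strongest reached into RELN over 965 kb with 44 read pairs (32.0 to 59.1).

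KMT2A, the gene rearranged in many infant leukemias, had contacts of 36, 22 and 17 read pairs, and the first and second led to bins in TMPRSS4. At KMT2D 2 of 3 interactions held a start site, and 1 of these, of 32 read pairs, led to a motif bin in TUBA1C. SETD2, which trimethylates lysine 36 of histone H3, had 9 interactions, 6 of them through 1 bin of the gene with no motif. NSD1, which dimethylates the same residue, had 4, all through the bin at chr5:177280001-177285000 inside the gene, with counts of 37, 18, 17 and 15.

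DOT1L, the methyltransferase of lysine 79 of histone H3, had the second-highest density of the members at 16.9 per 100 kb, with 15 interactions. Most of these were in the window but not in the gene. A bin just past its end, chr19:2235001-2240000, took 11 of the 15, and it holds the starts of PLEKHJ1 and the splicing factor gene SF3A2. Its strongest partner held the starts of LSM7 and SPPL2B, with 48 read pairs (35.4 to 63.6). The DOT1L start itself appeared in 1 interaction, joined to this same bin over 75 kb with 37 read pairs (26.1 to 51.0). That bin of the start also holds a start of AP3D1, which could not be separated from it at 5 kb. Counted in the gene body alone, without the 10 kb on either side, DOT1L had 4 interactions.

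PRC2 and ASXL1 had the lowest pooled density of the members' roles, 3.16 interactions per 100 kb, close to the 3.98 of DNA methylation. The value rests on 12 interactions over 4 genes and does not cover the PRC2 genes of the wider list. Of these EED, the subunit that reads the mark PRC2 deposits, had 6, and all 6 used its start-site bin, chr11:86200001-86205000, which has no motif. All 6 partners lay on the side before the gene, at 70 to 1750 kb, with contact counts of 46, 32, 26, 25, 18 and 17. The contact of 25 led to PICALM, a clathrin-assembly gene, in a bin with 3 motifs. EZH2, the catalytic subunit, had 1 interaction, of 19 read pairs, to a bin of CNTNAP2 that held 16 interactions. SUZ12 had 2, and neither lay at its start. ASXL1 had 3, with 29, 25 and 20 read pairs.

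A pair of members shared partners without touching each other. ASXL1 and the DNA methyltransferase gene DNMT3B lie on the same stretch of chromosome 20, and both contacted the bin at chr20:32290001-32295000 in KIF3B and the bin at chr20:32645001-32650000. Of the 3 ASXL1 interactions all led to one of these bins, and so did both DNMT3B interactions, 1 of which was at its start site with 18 read pairs. A bin of WNT10B on chromosome 12 was likewise shared by KMT2D and HDAC7, with 25 and 14 read pairs. Only 1 interaction in the list joined the windows of 2 members directly, ARID2 to HDAC7: 31 read pairs (21.1 to 44) over 2060 kb, with a q-value of 9.78e-14. It linked a bin inside ARID2, chr12:45750001-45755000, to the HDAC7 bin at chr12:47810001-47815000, and neither held a motif.

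The demethylases held 58 interactions and all 6 genes had at least 1. KDM4C, which demethylates lysine 9 of histone H3, had 28 and the second-highest contact count of the whole set, 65 read pairs (50.2 to 82.8). That contact joined chr9:7050001-7055000 in the gene to chr9:7190001-7195000, a bin with a motif that lay beyond the window. The same outside bin recurred in 8 of the 28 KDM4C interactions, with counts from 17 to 65, and held 11 in all. Inside the gene, the intron 8 bin with the motif printed above took 8 interactions, the strongest having 50 read pairs (37.1 to 65.9). A motif was present in a bin of 23 of the 28. A KDM4C interaction of 34 read pairs reached JAK2 over 2075 kb.

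KDM1A, also called LSD1, which demethylates lysine 4 of histone H3, had 14 interactions. Of these, 10 passed through the intron 2 bin chr1:23040001-23045000 that holds the motif printed above, with partners 50 to 610 kb away on both sides and none in the window. The strongest reached EPHB2 with 51 read pairs (38.0 to 67.1). KDM2B, which targets unmethylated CpG islands, had 8 interactions, 6 of them through 1 bin, and none had a motif in either bin. KDM6B is a demethylase of lysine 27 of histone H3. Its 4 interactions all held an internal transcript start, in a bin centred 3.28 kb after the annotated start of the gene. They led to NLRP1 over 2270 kb with 36 read pairs, to KCTD11 with 30, and to a pair of bins at CHD3 with 20 and 15. KDM5A had 1 interaction and KDM5B 3.

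The SWI/SNF and CHD remodelers held 115 interactions, the most of any role, over 9 genes, which was also the most. Their pooled density was 6.78 per 100 kb, below the 9.0 of the acetyltransferases and acetyl readers. The interactions were split unevenly between paralogs. ARID1B had 40 and ARID1A, the other DNA-binding subunit of the BAF complex, had 5; per 100 kb the values were 8.80 and 4.59. ARID1B had its contacts spread over many bins, the most used holding 9 each, and 20 of 40 had a motif in a bin. Its strongest, of 53 read pairs (39.7 to 69.3), joined a bin before the gene to a motif bin in the gene over 90 kb. No ARID1A interaction had a motif. One of the ARID1A interactions held the start of the gene and led to a bin of EXTL1 with 26 interactions.

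ARID2, the matching subunit of the PBAF complex, at chr12:45729706-45908040 on the plus strand, had 29 interactions in a window of 198 kb, or 14.6 per 100 kb. Its start-site bin, chr12:45725001-45730000, held 13 of them, more than any other bin with a member's start, and ranked 414th of 53535 anchor bins in the list. The bin carries the pair of motifs printed above, upstream of the gene. Contacts ran in both directions, 9 to higher and 4 to lower positions, over 90 to 1250 kb. The strongest joined it to chr12:45540001-45545000, which also has a motif, with 48 read pairs (35.4 to 63.6). A motif was present in 26 of the 29. Of all 29 contacts, 7 led to the bins at 45950001 and 45920001 in SCAF11, which encodes a splicing-related factor.

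CHD7, mutated in CHARGE syndrome, had 22 interactions, 10 of them at chr8:60800001-60805000, a bin 124 kb into the gene with 2 motifs. That bin was joined to one with a CHD7 transcript start by 42 read pairs (30.3 to 56.8). The ATPase subunits SMARCA2 and SMARCA4 had 11 and 3, or 4.71 and 2.17 per 100 kb. At SMARCA2 4 of 11 had a motif, and one contact, of 27 read pairs, reached DOCK8 over 1915 kb. The 3 interactions of CHD4, the NuRD ATPase, all went through a bin with the start of the neighbouring gene NOP2, at 38, 38 and 32 read pairs. Both SMARCC1 interactions went through the start of CSPG5.

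The deacetylases with NCOR1 held 100 interactions, and most belonged to class IIa, whose members are recruited by transcription factors of the MEF2 family. HDAC4 had 52, HDAC9 24 and HDAC7 15. The class I genes HDAC1 and HDAC2 had 6 and 0, and the corepressor NCOR1 had 3. The windows of HDAC4 and HDAC1 were 373 and 61.6 kb, and per 100 kb they had 13.9 and 9.75. HDAC5, a class IIa gene of the wider list, had 3, or 4.48 per 100 kb. HDAC4 had the most of all 44 genes and ranked 61st of 19970 protein-coding genes and 18th of the 1164 in its length class. HDAC7 had the highest density of the members, 21.3 per 100 kb in a window of 70.4 kb. HDAC9, with the longest window at 935 kb, had 2.57, not far from the median over protein-coding genes.

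HDAC4, at chr2:239048168-239401654 on the minus strand, had much of its contact within the gene. The intron 3 bin at chr2:239220001-239225000 held 20 interactions, the most of any bin in the 44 windows and 115th of 53535 in the list. Its partners lay 65 to 2335 kb away, 8 of them in the window, with 16 to 45 read pairs. The second bin, chr2:239305001-239310000, held 10; it has 2 motifs and an internal HDAC4 transcript start, 94.2 kb after the annotated start. These bins were joined to each other by the strongest HDAC4 contact, of 45 read pairs (32.8 to 60.2) over 85 kb, in a merged group with a summed count of 102. The next contacts of the second bin had 43 and 40 read pairs and led to bins nearer the annotated start. In all, 23 of the 52 interactions had both bins in the window, and 38 had a motif in a bin.

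**Figure D3:**
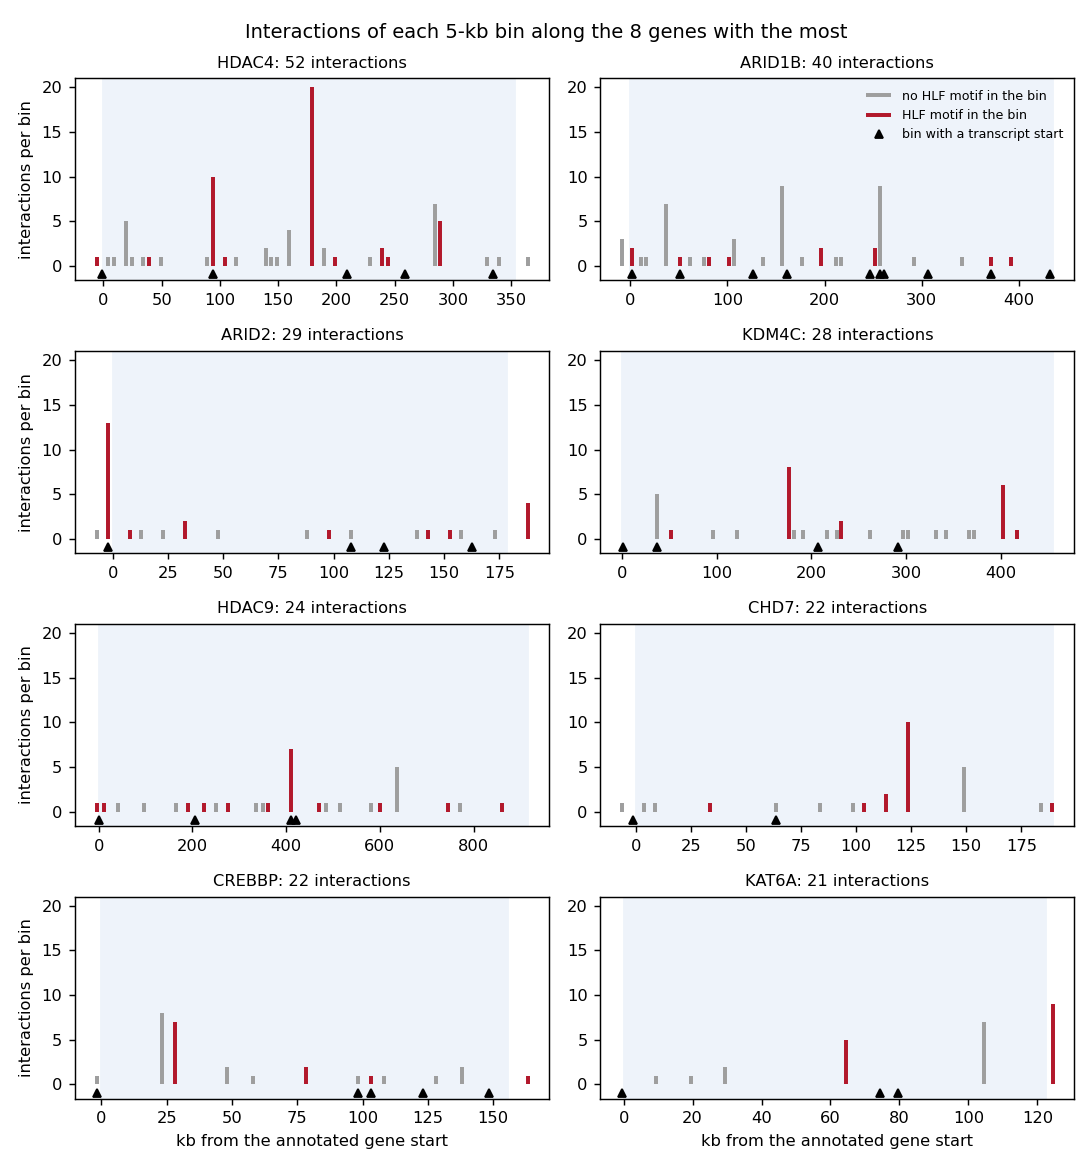
Number of interactions of each 5-kb bin against its distance in kb from the annotated gene start, for the 8 genes with the most interactions. Shading marks the gene body, red bars are bins with an HLF motif, grey bars bins without one, and triangles bins with a transcript start; HDAC4 peaks at 20 in intron 3 and ARID2 at 13 at its start, while no ARID1B bin passes 9.

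HDAC9 had a similar internal start, 411 kb into the gene, that took 7 interactions and was joined to bins in the gene with 41 and 40 read pairs. A bin before the gene, chr7:17710001-17715000, with 3 motifs and 12 interactions in all, was the partner in 5. At HDAC7 the bin with most contacts, chr12:47810001-47815000, also held an internal start, had no motif and took 9 of 15 interactions. The strongest HDAC7 contact used the annotated start and a bin at RAPGEF3 and SLC48A1, with 47 read pairs (34.5 to 62.5) and a summed count of 131 in its merged group. One of the HDAC7 interactions reached VDR, the vitamin D receptor gene. None of the 6 HDAC1 interactions had a motif, and 2 led to a bin in BSDC1 with 15 interactions.

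Among the DNA methylation genes, the methyltransferases DNMT3A and DNMT3B had 11 and 2 interactions. The TET dioxygenases, which oxidise methylcytosine, had 3 at TET1, 6 at TET2 and 4 at TET3. DNMT3A had 4 at its start site, with 36, 27, 24 and 16 read pairs, and a contact of 24 and one of 21 from other bins of the gene led to chr2:25990001-25995000, a bin with 40 interactions. All 6 TET2 interactions went through its start-site bin, chr4:105145001-105150000, with counts of 36, 34, 32, 24, 19 and 14, over 100 to 670 kb. The strongest led to PPA2, and neither the start-site bin nor any of the 6 partners had a motif. No TET1 interaction lay at a start site.

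Start sites were considered over all members. A start-site interaction was present at 24 of 44 genes, against 19.3% of protein-coding genes, or 25.5% (11.2 of 44 genes) when these were weighted to the window lengths of the members. Of the 145 other chromatin regulators, 49 had one (33.8%, 26.6 to 41.8), not weighted to length. The members had 167 bins with a start, and the 19970 protein-coding genes had 31912. No share was weighted to the number of starts per gene, so the effect of having more starts was not tested. A bin with a member's start took part in 107 of the 446 interactions (24.0%). Of the bins that hold a member's start, 35 of 167 (21%, Wilson 95% interval 15.5 to 27.7) were anchors. The other bins of the gene bodies were anchors in 16.4% (14.4 to 18.6), so the intervals overlapped. For the start-site bins of all protein-coding genes the share was 13.1%, with no matching for gene length. The 167 bins come from 44 genes and are not independent, so their interval is too narrow and the difference was not tested. Many of these starts were internal: counted at the annotated start of the gene only, the members with a start-site interaction numbered 15. That rule was not applied to all protein-coding genes, so 15 cannot be set against the 19.3% or 25.5%, which use every start. EED, TET2 and KDM6B, with 6, 6 and 4 interactions, were the 3 members with every interaction at a start site. Each used 1 bin only, and the same count was not made over all protein-coding genes. None of their start bins held a motif, and of all 35 anchor bins with a start, 10 did.

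A start joined to a bin with a motif occurred in 33 of the 446 interactions (7.4%), at 17 of 44 members. The same count was not made over all protein-coding genes or the whole list, and 30.6% of all 5-kb bins held a motif. These numbers therefore describe the members only. The strongest for a gene had 48 read pairs at ARID2, 45 at HDAC4, 42 at CHD7, 40 at HDAC9 and KAT6B, 37 at DOT1L, 36 at ARID1B, 33 at HDAC7, 32 at KMT2D, 26 at KDM1A, 25 at EED and 24 at DNMT3A. The Poisson intervals of 48 and 24 (35.4 to 63.6 and 15.4 to 35.7) barely met, and all neighbours in this order overlapped. RefSeq promoters on GRCh38.p14, from 250 bases before to 50 after the start, were found for 39 of the 44 genes. None of the 39 held the motif, and 1.01% of the 35116 RefSeq promoters did.

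The HLF motif was present in a bin of 278 of the 446 interactions (62.3%, 57.7 to 66.7), and in 66.8% of the whole list. This interval takes the interactions as independent although many share a bin, so it is too narrow, and the difference was not tested. The share differed widely by gene. It was 12 of 12 at KAT6B, 26 of 29 at ARID2, 21 of 24 at HDAC9 and 23 of 28 at KDM4C, but 0 of 8 at KDM2B, 0 of 6 at HDAC1 and TET2, and 0 of 5 at ARID1A. Interactions of a gene share bins, so these shares rest largely on its most-used bin and are not independent counts. Among bins of the windows, those with 1 interaction held a motif in 29.7% (57 of 192) and those with none in 28.8%. The share was 31.6% with 2 to 4 interactions, 48.4% (15 of 31, 32.0 to 65.2) with 5 or more and 85.7% (6 of 7, 48.7 to 97.4) with 10 or more. The same rise was present over the whole list, from 28.5% to 66.7%, and the members' intervals included its values.

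**Figure D4:**
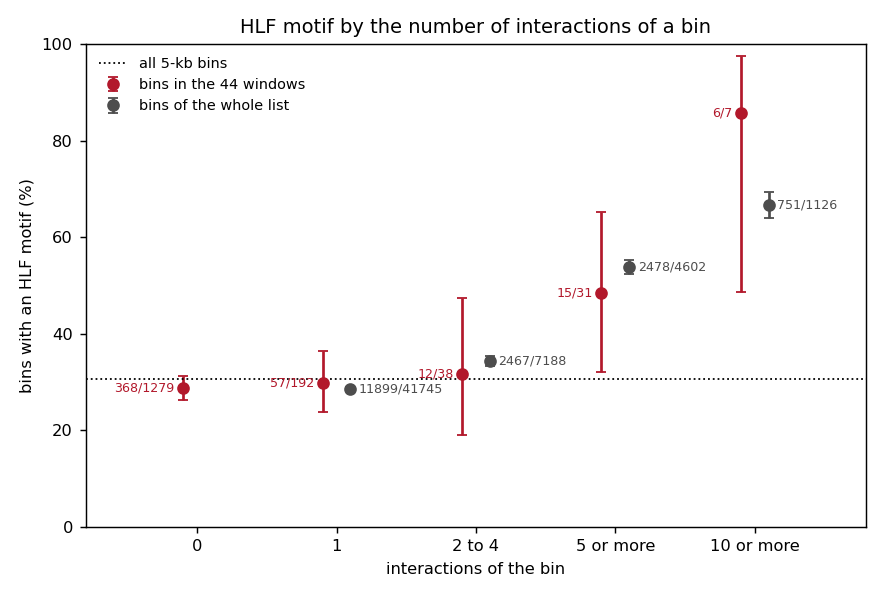
Percent of 5-kb bins with an HLF motif, by the number of interactions of the bin, for the 44 windows (red) and all anchor bins of the list (grey), with Wilson 95% intervals and the counts beside each point. The dotted line is the 30.6% of all 5-kb bins; red rises from 28.8% at 0 interactions to 85.7% at 10 or more, on 7 bins.

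In strength and reach the interactions of the members were like those of the list. The median contact count was 24 (23 to 25, range 11 to 67) and the list's was 24. Relative to listed interactions at the same distance, the median ratio was 1.00 (0.976 to 1.04). The median distance was 228 kb (210 to 275) against 255 kb, and 12.1% were over 1 Mb apart against 13.7%. Both bins lay in the window of 1 gene in 20.1% of the members' gene-interaction pairs and in 10.7% of those of all protein-coding genes, whose windows are shorter. A bin with 10 or more interactions took part in 28.3% (24.3 to 32.6), against 32.0% of the list.

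**Figure D5:**
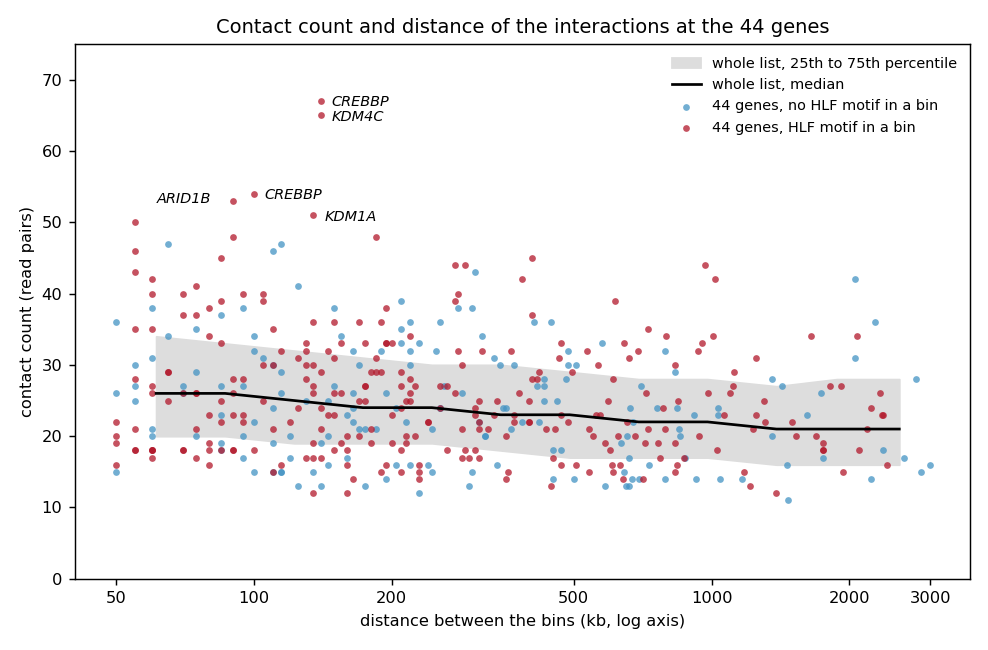
Contact count in read pairs of each of the 446 interactions against the distance between its bins in kb (log axis), red with and blue without an HLF motif in a bin, over the median (line) and the 25th to 75th percentile (band) of the whole list. Most points lie within or near the band, and the contacts of 67 and 65 read pairs at CREBBP and KDM4C lie far above it.

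Partners outside the windows were described without a comparison to the list. Of the 357 partner ends beyond the window of the member, 53.5% (48.3 to 58.6) were bins with 1 interaction and 12% were bins with 10 or more. A start of a protein-coding gene lay in 13.4% of them, a motif in 32.2% (27.6 to 37.2, which includes the 30.6% of all bins), and 43.4% were in no protein-coding gene. As a check for near-identical sequence, the 31-mers present in both bins were counted, and 140 of the 446 interactions (31.4%) had 1 or more while 0 had 500 or more.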

How the data were processed

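TCF3::HLF HiChIP was made with the Dovetail MNase kit from 2 replicates of HAL-01 cells. Per the labels and methods, the authors trimmed reads with Trim Galore 0.6.6, merged the replicates, aligned them to hg38 with BWA, omitted removal of duplicate pairs, called peaks with MACS2 and passed them to FitHiChIP, which listed pairs of 5-kb bins at separations of 50 kb to 3 Mb whose q-value was below 0.01. Neighbouring contacts were merged. The FitHiChIP version was not given in the sources used here. The deposited contact counts are raw read pairs per bin pair, 1268490 over the list and 11283 at the 44 genes, and sumCC adds them up within each merged group. The deposited p-values and q-values are those of FitHiChIP for distance and coverage. The deposited StrongConn fraction was not used in a result. As duplicate pairs were kept, intervals cover counting error between read pairs and not between molecules.

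Genes and transcript starts were those of GENCODE release 44, and start sites those of protein-coding transcripts. Counting used Python 3.11.15 with pandas 2.3.3, numpy 2.4.6 and scipy 1.17.1, and sequence was read with samtools 1.23.1 and pyfaidx 0.9.0.4. The counting was tested on simulated data, where the counts of 50 of 50 planted genes were recovered. All 98490 bins lay within their chromosomes, and 0 columns of other samples were present. Shares have Wilson, single counts exact Poisson and medians order-statistic 95% intervals. Those over interactions or bins take them as independent, although interactions of a gene share bins. No test was run. In 165 of 49045 merged groups several lines share a sumCC, which concerns 2 interactions of the 44 genes.

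The 44 genes and the list of other chromatin regulators were chosen with earlier results of these data known. Named with values were the 10 genes with the most interactions, the 10 interactions with the largest contact count, the 5 genes with the highest density, up to 12 genes with a start joined to a motif bin, every join of 2 members and the genes with none. Other members and partners were named with their values in view. The alternatives tried were a stricter q-value (0.001 or 1e-05), a contact count of at least 20, other windows (the gene body alone, or with 50 kb), merged bin ranges, distances up to 1 Mb, chromosomes other than 17 and 19, merged groups only, other start-site rules and other motif rules.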

Additional observations from a re-analysis of the deposited data

How the results depend on the processing

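No paired analysis was possible because both replicates were merged into 1 list before interactions were called, and for the same reason neither replicate could be left out. The 446 interactions, 41 members with one and 24 with one at a start site stayed within 1.5 times under the stricter q-values, the contact-count minimum, the other windows, merged ranges, shorter distances and the list without chromosomes 17 and 19 (start sites were not recounted for the other windows, which do not enter that rule). The median contact count of 24 became 26 at a q-value under 0.001 and 28 under 1e-05, which removes weak contacts by construction. Counting the annotated gene start alone left 15 members with a start-site interaction, a count not made over all protein-coding genes. The share of interactions with a motif in a bin, 62.3%, was 16.4% for TTACGTAA only and 37.9% with a purine before and a pyrimidine after the 8 bases. Keeping merged groups of more than 1 bin pair left 28 interactions at 11 members, 6 of them at a start site, with a median contact count of 35, a median distance of 108 kb, a motif in 75%, both bins in the window in 53.6%, a median density of 0 per 100 kb, and 29 of the other chromatin regulators. HDAC4 had the most interactions of the 44 genes under each of these 9 filters and windows. Over the 17 genes with 10 or more interactions and apart from merged groups, these counts moved by more than 1.5 times. At gene body only, DOT1L went from 15 to 4, KMT2E from 17 to 10 and SMARCA2 from 11 to 5, and with 50 kb on each side HDAC7 went from 15 to 33 and SMARCA2 to 17. At a q-value under 1e-05, HDAC4 went from 52 to 33, CHD7 from 22 to 12, KAT6A from 21 to 12, KMT2C from 18 to 9, KAT6B from 12 to 6, DNMT3A from 11 to 6, SMARCA2 to 6 and EP300 from 10 to 4. At a contact count of at least 20, CHD7 had 14, KAT6A 12, KMT2C 7, DNMT3A 7, SMARCA2 6 and EP300 5. The median density of 4.65 per 100 kb became 3.00 and 2.92 under the contact-count minimum and the q-value under 1e-05.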
